A study of Mus musculus with 6 samples.

Results

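Hemoglobin genes were followed here as a possible measure of how much blood RNA each submandibular gland (SMG) library held. Whether they measured it was not tested. The genes were 6 rows of the unfiltered count table, picked by symbol: the alpha globin genes Hba-a1 and Hba-a2, the beta globin genes Hbb-bs and Hbb-bt, the erythroid heme synthesis gene Alas2 and the red cell membrane gene Slc4a1. They were 6 of 43280 rows, and all 6 were among the 18606 rows that held enough counts to be tested. They had been singled out because of how they differed between the groups of these same libraries, so that difference is given below as a description. No p-value is printed for any of them, and where members are said to be under a threshold, nothing is read from it.

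RNA was sequenced from SMGs of adult female mice on a C57BL/6 background, with 3 wild type libraries (WT, labelled 1, 4 and 5) and 3 libraries from double knockout mice (DKO, also labelled 1, 4 and 5). In DKO mice both heparan sulfate 3-O-sulfotransferase genes of the pair Hs3st3a1 and Hs3st3b1 are inactivated in the germline, Hs3st3a1 by a small frameshift deletion made with zinc finger nucleases in exon 1 and Hs3st3b1 by a LacZ cassette. WT mice were littermates, and the mice were offspring of intercrossed heterozygotes descended from several founders. Exact ages, the founder line of each library and any perfusion of the gland were not given in the sources used here.

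Hemoglobin is the oxygen carrier of red cells, a tetramer of alpha and beta chains, each holding a heme. Mature mouse red cells have no nucleus, and young red cells (reticulocytes) still carry globin mRNA made in the bone marrow, so a gland taken with its blood brings globin transcripts that its own cells did not make. Erythroid cells make alpha and beta chains in balance, and their genes lie on different chromosomes. Alas2 makes the erythroid form of 5-aminolevulinate synthase, the first enzyme of heme synthesis, and Slc4a1 makes band 3, the anion exchanger of the red cell membrane.

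In GENCODE M21 (GRCm38), Hba-a1 lies at chr11:32283511-32284465 and Hba-a2 at chr11:32296489-32297298, both on the plus strand with 3 exons each. Hbb-bs lies at chr7:103826534-103828096 and Hbb-bt at chr7:103812524-103813996, both on the minus strand with 3 exons each. Alas2 lies at chrX:150547375-150570638 with 11 exons on the plus strand, and Slc4a1 at chr11:102348824-102366203 with 20 exons on the minus strand. The alpha genes and Slc4a1 are therefore on the chromosome that holds Hs3st3a1 and Hs3st3b1, at 31.6 and 38.4 Mb from Hs3st3b1, and the beta genes and Alas2 are not.

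The members of each chain pair are nearly the same gene in sequence, which limits what the counts of either alone can show. The coding sequences of Hba-a1 and Hba-a2 are 426 bases long and differ at 1 base, C381T, counted from 1 at the first base of the start codon with the base of Hba-a1 first. Those of Hbb-bs and Hbb-bt are 441 bases long and differ at 1 base, C417T, with the base of Hbb-bs first. The stretch around that base, coding bases 351 to 411 of the alpha genes and 387 to 441 of the beta genes, is printed 5′ to 3′ with the differing base in capitals.
Hba-a1: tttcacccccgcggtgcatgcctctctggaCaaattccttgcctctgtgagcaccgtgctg
Hba-a2: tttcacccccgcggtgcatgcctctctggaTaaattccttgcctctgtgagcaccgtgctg
Hbb-bs: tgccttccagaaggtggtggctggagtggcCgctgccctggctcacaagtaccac
Hbb-bt: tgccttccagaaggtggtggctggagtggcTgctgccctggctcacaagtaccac

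Most 50-base windows of these transcripts also occur in the partner gene. The share was 67.5% for Hba-a1, 86.9% for Hba-a2, 65.8% for Hbb-bs and 58.3% for Hbb-bt, and it was 54.8% to 74.5% for 100-base windows. How the authors assigned reads that match both genes of a pair is not given in the sources used here, so the counts of the genes within a pair are uncertain. The sum of each chain is the safer measure. If such reads were left out, the sums would still be too low, and not by the same part in each chain.

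Promoters of the 4 globin genes share short motifs that erythroid promoters are known for: GATAA, the core of the site bound by GATA factors, CACCC, the core of the site bound by KLF factors, and the general promoter elements CCAAT and TATAA. Of the 6 genes, 5 had an entry in the RefSeq promoter table (GRCm38.p6), Slc4a1 being the exception. All 4 motifs were found on either strand in the 250 bases before the start of each of the 4 globin genes, and TATAA began 27 to 30 bases before the start in each (position -27 for Hba-a1, -30 for Hba-a2, -29 for Hbb-bs and -28 for Hbb-bt). Over all 32851 promoters of the table, the same window held GATAA in 22.6%, CACCC in 52.0%, CCAAT in 33.8%, TATAA in 22.8% and all 4 in 0.968%. The window of Alas2 held the motifs other than CCAAT. The motifs do not overlap each other in the stretches printed, and a match of letters is not evidence of binding. The promoters of Hba-a2 and Hbb-bt are shown as an example of each chain, to set the motifs of unlike sequences side by side. The windows of Hba-a1 and Hba-a2 share a run of 247 bases, those of Hba-a2 and Hbb-bt no run longer than 8. Capitals mark the 4 motifs on either strand in chr11:32296242-32296488 (plus strand) for Hba-a2 and chr7:103813997-103814173 (minus strand) for Hbb-bt. The Hbb-bt stretch ends before the outermost GENCODE start, so the TATAA nearest to the RefSeq start lies outside it. Its end also cuts the CCAAT of the gene strand at position -75, which is therefore not marked. The ATTGG marked there is a CCAAT of the other strand, at position -80.
Hba-a2: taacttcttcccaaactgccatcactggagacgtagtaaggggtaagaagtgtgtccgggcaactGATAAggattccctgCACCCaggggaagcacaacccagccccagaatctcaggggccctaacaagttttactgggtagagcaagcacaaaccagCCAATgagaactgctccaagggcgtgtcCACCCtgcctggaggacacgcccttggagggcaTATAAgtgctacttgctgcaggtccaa
Hbb-bt: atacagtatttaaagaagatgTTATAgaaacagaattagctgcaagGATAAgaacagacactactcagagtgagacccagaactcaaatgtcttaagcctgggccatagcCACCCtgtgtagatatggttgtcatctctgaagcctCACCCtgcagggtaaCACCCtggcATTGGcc

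Library totals were between 23674258 and 29611975 counts, and DESeq2 size factors between 0.867 and 1.12. Counts of the targeted genes did not separate the groups: Hs3st3a1 had 11 to 15 counts in WT and 8 to 13 in DKO, and Hs3st3b1 had 173 to 261 in WT and 120 to 255 in DKO. The counts thus did not show a loss of either transcript in DKO and do not check the labels. By qPCR, the paper found neither gene expressed in adult DKO SMGs of either sex. Whether the alleles leave a transcript that is counted was not tested, and WT and DKO below mean the libraries labelled so, in every direction given. Over all 18606 rows, DESeq2 placed 539 (2.9%) under an adjusted p of 0.05, 189 (1.02%) higher in DKO and 350 (1.88%) lower. That total was 151 without WT 1, 817 without WT 4, 149 without WT 5, 170 without DKO 4 and 166 without DKO 5, and 10 with edgeR or 7 with limma-voom. An unadjusted p under 0.05 was found in 2267 of the 18606 rows with DESeq2, 2789 with edgeR and 2609 with limma-voom. Below, a gene that rose or fell is one under the DESeq2 threshold of an adjusted p of 0.05.

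All 4 globin rows were higher in every DKO library than in every WT library, by 2.31- to 2.92-fold in the fit, and Alas2 was higher by 1.64-fold. Slc4a1, at 1 to 14 counts, overlapped between the groups. DESeq2 placed 4 of the 6 genes under the threshold, all higher in DKO, where 1.02% of all rows were, and 5 of the 6 did not overlap between the groups in that direction, where 9.85% of all rows did not. The genes were chosen for this difference, so nothing is read from these counts. No member passed with edgeR, where 0.0537% of all rows did, or with limma-voom. With each of the 3 tools 5 of 6 had an unadjusted p under 0.05, where 2267 to 2789 of all 18606 rows did. That is no support either, and DESeq2 gave no adjusted p for Slc4a1. In whole-gland RNA, more red cells in DKO and more globin RNA per red cell cannot be told apart. Whether gland cells made any of the globin RNA was not tested.

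Of the alpha chain genes, Hba-a1 had 282, 427 and 185 normalized counts (counts divided by the size factor) in WT 1, 4 and 5 and 724, 634 and 710 in DKO 1, 4 and 5. The groups did not overlap, and WT libraries spread 2.31-fold against 1.14-fold for DKO. Means were 298 ± 122 and 690 ± 48.2 (SD, n = 3 each), a log2 fold change of 1.21 ± 0.23 (SE). Hba-a2, the gene downstream of it in the cluster, stood at 42.6, 60.6 and 28.7 normalized counts in WT 1, 4 and 5 and 121, 120 and 142 in DKO 1, 4 and 5. Again WT 5 was lowest and all DKO libraries lay above WT 4, with means of 44.0 ± 16.0 and 128 ± 12.1 (SD, n = 3 each) and a log2 fold change of 1.54 ± 0.29 (SE). Without DKO 4 the log2 fold change of Hba-a1 was 1.27, and it was then no longer under the DESeq2 threshold.

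Of the beta chain genes, Hbb-bs, the more abundant of the pair, stood at 750, 1049 and 528 normalized counts in WT 1, 4 and 5 and 1954, 1698 and 1742 in DKO 1, 4 and 5. The order of the WT libraries was that of the alpha genes. Means were 776 ± 261 and 1798 ± 136 (SD, n = 3 each), a log2 fold change of 1.21 ± 0.19 (SE). Hbb-bt, the minor adult beta gene, stood at 94.0, 120 and 57.3 normalized counts in WT 1, 4 and 5 and 219, 227 and 195 in DKO 1, 4 and 5. The groups did not overlap, and the means were 90.6 ± 31.6 and 214 ± 16.7 (SD, n = 3 each), a log2 fold change of 1.24 ± 0.25 (SE).

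Alas2 stood at 92.0, 115 and 62.7 normalized counts in WT 1, 4 and 5 and 149, 144 and 150 in DKO 1, 4 and 5. It kept the WT order of the globins, and its mean was 90.1 ± 26.4 in WT and 148 ± 3.03 in DKO (SD, n = 3 each). Its log2 fold change was 0.72 ± 0.25 (SE), outside the DESeq2 threshold with all libraries and under it without WT 4, where it was 0.94. Slc4a1 had 4, 3 and 1 raw counts in WT 1, 4 and 5 and 7, 14 and 2 in DKO 1, 4 and 5. At this depth the groups could not be told apart: exact 95% Poisson intervals reached from 0.0253 to 10.2 counts over the WT libraries and from 0.242 to 23.5 over the DKO libraries. Its log2 fold change of 1.62 ± 1.07 (SE) moved between 0.81 and 2.06 as each library was left out in turn.

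The WT order was shared by most of these genes. In 5 of the 6, WT 5 was lowest, then WT 1, then WT 4, with every DKO library above. Of the 1832 rows with every DKO library above every WT library, the difference for which the genes were chosen, 23.4% had this WT order, and nothing is read from it. Among DKO libraries no such order was shared, since DKO 1 was highest for Hbb-bs and Hba-a1, DKO 5 for Hba-a2 and Alas2, and DKO 4 for Hbb-bt. The plot of the members by library shows both features.

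**Figure D1:**
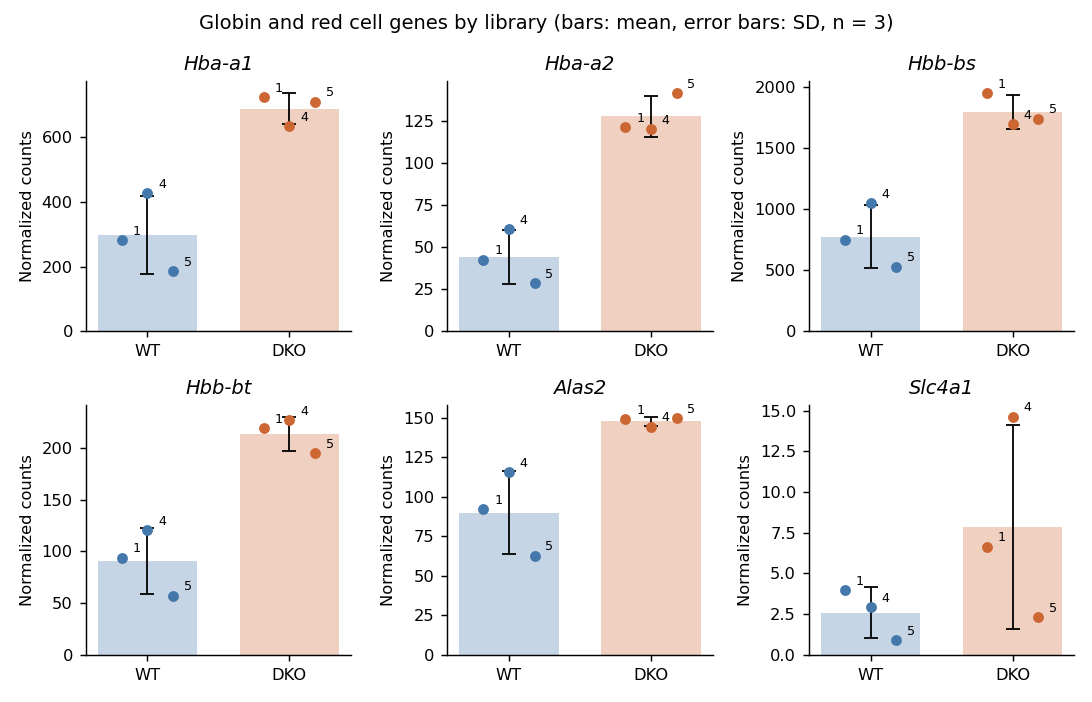
Normalized counts of the 6 genes in each WT (blue) and DKO (orange) library. The DKO points lie above all WT points for the 4 globins and Alas2 and mix with them for Slc4a1, at 0.896 to 14.6 normalized counts.

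In CPM per kilobase of transcript, the only scale on which genes are set beside each other here, Hbb-bs had the highest level at 49.6 ± 14.5 in WT and 98.8 ± 15.1 in DKO (SD, n = 3 each). Hba-a1 followed at 17.1 ± 6.17 and 34.0 ± 4.64, then Hbb-bt at 5.18 ± 1.64 and 10.4 ± 1.16 and Hba-a2 at 3.18 ± 1.02 and 7.92 ± 0.819. The spreads of Hbb-bt and Hba-a2 overlapped in WT, but within every library Hba-a2 was the lower, at 0.574 to 0.924 times the level of Hbb-bt. These levels divide by full transcript length, and how reads that match both genes of a pair were counted is not given. Windows of 50 bases shared with the partner gene were 86.9% for Hba-a2 and 58.3% for Hbb-bt. The order of single globin genes is therefore uncertain. Alas2 was lower at 1.78 ± 0.464 and 2.49 ± 0.220, and Slc4a1 was at 0.0232 ± 0.0146 and 0.0585 ± 0.0436 at a few counts per library. Because total counts, not size factors, set this scale, the gap between groups was smaller on it.

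Summed over the 4 globin rows, normalized counts were 1169, 1657 and 800 in WT 1, 4 and 5 and 3018, 2680 and 2789 in DKO 1, 4 and 5. The lowest DKO library was 1.62 times the highest WT library. Means were 1209 ± 430 and 2829 ± 173 (SD, n = 3 each), 2.34-fold apart, and the libraries spread 2.07-fold within WT, 1.13-fold within DKO and 3.77-fold in all. The difference of the mean log2 sums was 1.29 and stayed between 1.02 and 1.55 as each library was left out.

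As a share of all counts, which needs no size factor, globin was small in every library. It was 0.00485% ± 0.00151 in WT and 0.00976% ± 0.00134 in DKO (SD, n = 3 each), 2.01-fold apart. Whether reads matching both genes of a pair were counted is not given, and without them the share would be too low. The 95% Wilson intervals, which cover counting error only, did not overlap between any WT and any DKO library: they ran from 0.00306% to 0.00349% in WT 5, from 0.00599% to 0.00659% in WT 4 and from 0.00833% to 0.00900% in DKO 4, the library nearest to WT. Counting error was thus much narrower than the spread between WT libraries. In CPM (counts scaled to the library total), globin summed to 49.9, 62.8 and 32.7 in WT 1, 4 and 5 and to 113, 86.6 and 93.6 in DKO 1, 4 and 5. With totals in place of size factors the median log2 fold change of all rows moved to -0.23 and the globin difference to 1.05.

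The comparison of chains asked whether alpha and beta globin moved in step from library to library. Alpha counts were 328, 499 and 239 in WT 1, 4 and 5 and 891, 722 and 739 in DKO 1, 4 and 5. Beta counts were 853, 1195 and 654 in WT 1, 4 and 5 and 2290, 1842 and 1680 in DKO 1, 4 and 5. Both sums put WT 5 lowest and WT 4 highest within WT.

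The alpha to beta count ratio, which is free of depth and scaling, was 0.385, 0.418 and 0.365 in WT 1, 4 and 5 and 0.389, 0.392 and 0.440 in DKO 1, 4 and 5. The groups overlapped, and the ratio spread 1.20-fold over all 6 libraries while the summed globin count spread 3.77-fold. On the log2 scale the mean ratio was -1.36 ± 0.10 in WT and -1.30 ± 0.10 in DKO (SD, n = 3 each), a difference of 0.06. Alpha made up 28.0% ± 1.36 of globin counts in WT and 28.9% ± 1.43 in DKO. The lowest share, 26.8% in WT 5, had a 95% Wilson interval of 24.0% to 29.8%, and the highest, 30.5% in DKO 5, had 28.7% to 32.4%, so even the extremes overlapped. Taken gene by gene the difference of the log2 ratio depended on the alpha gene: it was 0.02 for Hba-a1 over Hbb-bs and -0.01 for Hba-a1 over Hbb-bt, but 0.34 for Hba-a2 over Hbb-bs and 0.30 for Hba-a2 over Hbb-bt. The plot of alpha against beta counts shows the 6 libraries along 1 line.

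**Figure D2:**
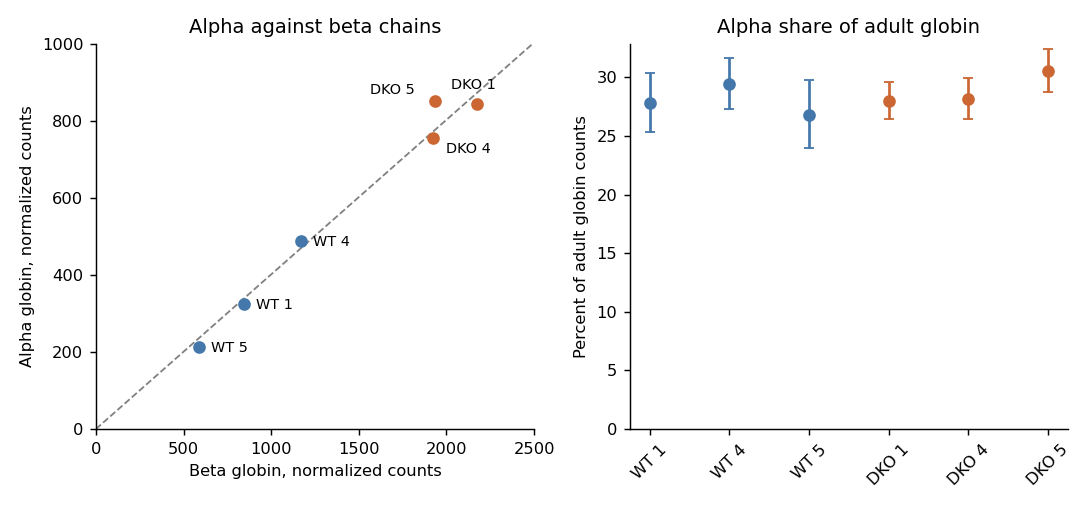
Alpha globin against beta globin in each library, with the line of the ratio of counts over all libraries, 0.401. All 6 libraries lie close to the line, with ratios of 0.365 to 0.440, and the DKO libraries (orange) lie further along it than the WT libraries (blue).

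Within the chains, the groups overlapped in the proportions of the beta pair and not in those of the alpha pair. Hbb-bt took 11.1%, 10.3% and 9.79% of beta counts in WT 1, 4 and 5 and 10.1%, 11.8% and 10.1% in DKO 1, 4 and 5, a spread of 1.20-fold. Hba-a2 took 13.1%, 12.4% and 13.4% of alpha counts in WT 1, 4 and 5 and 14.4%, 15.9% and 16.6% in DKO 1, 4 and 5. Hba-a1 counts were 6.72 ± 0.299 times those of Hba-a2 in WT and 5.42 ± 0.491 times in DKO (SD, n = 3 each). The Wilson intervals of single libraries overlapped, such as 9.65% to 18.3% in WT 5 and 12.2% to 16.8% in DKO 1. The Hba-a2 share rests on 32 to 128 counts of a gene whose reads mostly match Hba-a1 as well. With 3 libraries against 3, an exact permutation test of such a value cannot give a two-sided p below 0.1.

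Alas2 differed less between the groups than globin did. Of the counts of globin and Alas2 together, Alas2 took 7.30%, 6.51% and 7.27% in WT 1, 4 and 5 and 4.70%, 5.11% and 5.10% in DKO 1, 4 and 5. The groups did not overlap: the means were 7.03% ± 0.446 and 4.97% ± 0.231 (SD, n = 3 each), a ratio of 0.707. The Wilson interval of WT 4, 5.47% to 7.74%, overlapped that of DKO 5, 4.31% to 6.02%. The plot of shares within the blood rows sets these shares side by side.

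**Figure D3:**
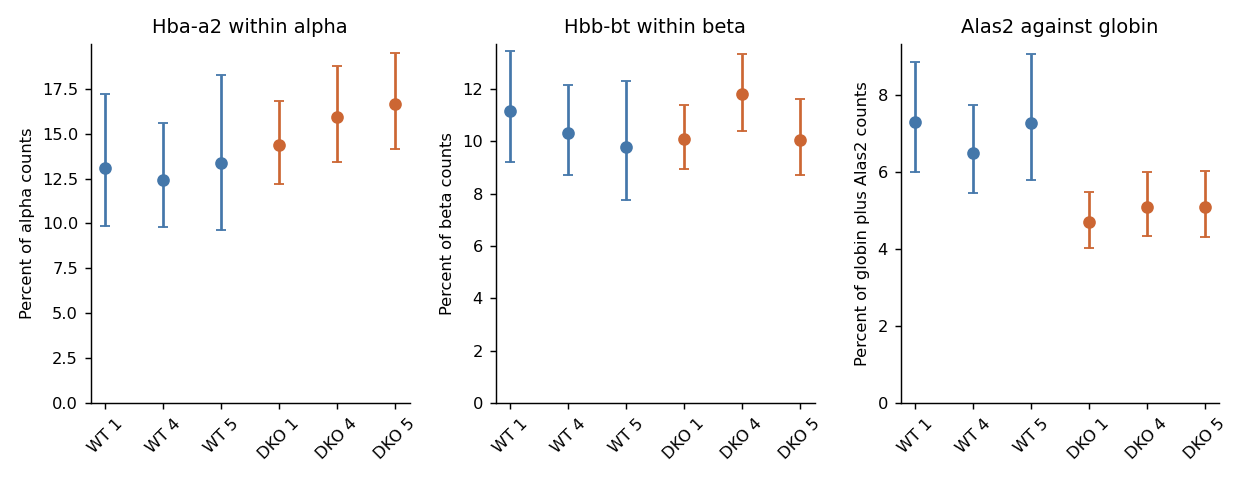
Shares, in percent with 95% Wilson intervals, of Hba-a2 in alpha counts, Hbb-bt in beta counts and Alas2 in globin plus Alas2 counts, for each WT (blue) and DKO (orange) library. The Hbb-bt share overlaps between the groups, while the Hba-a2 share is higher (14.4% to 16.6% against 12.4% to 13.4%) and the Alas2 share lower (4.70% to 5.11% against 6.51% to 7.30%) in DKO.

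Other genes of red cells and heme synthesis were followed in 4 lists: other globins, red cell membrane and skeleton, heme synthesis, and erythroid regulators with reticulocyte enzymes. The 63 entries led to 58 different rows, Tent5c and Fam46c being names of the same row, and 39 rows could be tested. None passed with DESeq2, edgeR or limma-voom, where 4, 5 and 5 had an unadjusted p under 0.05. Of all 18606 rows, 2267, 2789 and 2609 did. Their median log2 fold change was 0.10 with 26 of 39 positive, against a median of 0.00 and 50.2% positive over all rows. Without DKO 5 the transferrin receptor gene Tfrc, which brings iron into cells, rose (log2 fold change 0.45, adjusted p = 0.0315 with DESeq2).

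The defining genes of the erythroid lineage were near 0. The transcription factor gene Gata1 and the blood group gene Kel had 0 counts in all 6 libraries, which allows up to 0.101 to 0.127 CPM (3 counts) in each. Klf1, the erythroid activator of the adult beta globin gene, had 1 to 3 counts and Hemgn 1 to 6. Embryonic globins were at 0, apart from 9 counts of Hbb-y and 1 of Hba-x in WT 5, the library with the least adult globin.

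The abundant genes of these lists, most of which many other cells also use, stood apart from globin. Cytoglobin (Cygb), a globin of fibroblasts, went from 203 ± 8.50 to 156 ± 24.8 normalized counts (WT to DKO, SD, n = 3 each), a log2 fold change of -0.38 with an adjusted p of 0.338. Alas1, the form of the heme synthesis enzyme that all tissues use, had 896 ± 73.7 and 895 ± 225, a log2 fold change of 0.00 (adjusted p = 0.999 with DESeq2), beside 0.72 for its erythroid counterpart Alas2. Over all 12 heme synthesis genes tested the median log2 fold change was 0.11, in a range from -0.02 to 0.36. The red cell skeleton gene Epb4.1, which makes protein 4.1, had 2506 ± 111 and 2769 ± 70.1, a log2 fold change of 0.14 (adjusted p = 0.503 with DESeq2), and Sptb, for beta spectrin, 591 ± 35.9 and 494 ± 124. Among reticulocyte genes, the peroxiredoxin gene Prdx2 had 1256 ± 28.4 and 1467 ± 232, and Fam46c 3943 ± 691 and 4215 ± 117. Tfrc had 1493 ± 74.8 and 1843 ± 363.

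Genes that bind hemoglobin, break down heme or store its iron did not pass the threshold in any of 15 rows with DESeq2, edgeR or limma-voom. With each tool 5 had an unadjusted p under 0.05, beside 2267, 2789 and 2609 of all 18606 rows. Their median log2 fold change was 0.08. The most abundant, the ferritin chain genes Ftl1 and Fth1, had log2 fold changes of 0.12 and 0.19, with adjusted p of 0.676 and 0.420 in DESeq2. Cd163, the macrophage receptor that takes up hemoglobin bound to haptoglobin, averaged 65.2 ± 31.1 normalized counts for WT and 28.7 ± 8.08 for DKO, a log2 fold change of -1.18 with an adjusted p of 0.0902 in DESeq2. Leaving out WT 4, DESeq2 placed 3 of the 15 under the threshold: Cd163 (-1.43), the iron transporter gene Slc11a2 (0.42) and the heme transporter gene Slc48a1 (0.37). Leaving out WT 1, it placed 1, the iron exporter gene Slc40a1 (-0.78).

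No gene of the other cells that circulate in blood rose. Of 44 entries for platelets, neutrophils, monocytes and lymphocytes, 25 could be tested, 0 rose and 9 fell with DESeq2, where 1.88% of all rows fell, and their median log2 fold change was -1.43. No gene of them passed with edgeR or limma-voom, where 19 and 17 had an unadjusted p under 0.05. Of all 18606 rows, 2789 and 2609 did with these 2 tools. The DESeq2 count depended on the libraries: it was 2 without WT 1, 14 without WT 4, 1 without WT 5, 2 without DKO 4 and 1 without DKO 5, and it was 8 without DKO 1. Summed normalized counts of the 4 lists were 1813 to 2338 in WT and 1517 to 1674 in DKO, which did not overlap. The most abundant gene, Nr4a1 of the monocyte list, added most to these sums and went the other way. It had 655 ± 130 in WT and 882 ± 95.4 in DKO (SD, n = 3 each), with overlapping groups. Its log2 fold change was 0.43 (adjusted p = 0.111 with DESeq2), and 3 of the 25 genes tested had a positive one. The part of cells outside the blood in these sums was not tested.

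By cell type, 5 of 11 lymphocyte genes fell, and their summed normalized counts were 81.2 to 426 in WT and 31.1 to 51.2 in DKO. The T cell gene Cd8a had 38, 10 and 25 counts in WT 1, 4 and 5 and 0 in each DKO library, at least 7.39-fold lower against a limit of 3 counts per library. The T cell genes Cd3d, Cd3g and Cd4 and the B cell gene Ms4a1 also fell, with log2 fold changes of -4.83, -3.42, -3.14 and -4.97, and the groups overlapped for Cd4 and Ms4a1. WT libraries differed widely: Ms4a1 stood at 60.4, 0.978 and 5.37 normalized counts in WT 1, 4 and 5 and at 0, 1.05 and 1.15 in DKO 1, 4 and 5, so its WT mean came mostly from WT 1, which was not the WT library with most globin. Of the monocyte genes, 2 fell: Ccr2, a chemokine receptor gene, from 345 ± 112 to 145 ± 47.2 normalized counts, and Ly6c2, a surface protein gene of inflammatory monocytes, from 41.3 to 7.64 on average, with overlapping groups.

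Among neutrophil genes 1 of 3 tested fell, Csf3r, the receptor gene for granulocyte colony stimulating factor, from 44.0 ± 12.2 to 16.9 ± 2.73 normalized counts. The most abundant transcripts of blood neutrophils, S100a8 and S100a9, had 0 to 3 counts in all libraries. Among platelet genes 1 of 5 tested fell, the integrin gene Itgb3, from 150 ± 14.4 to 77.2 ± 15.5 normalized counts. The more platelet-specific Itga2b had 29.7 ± 4.79 and 22.7 ± 4.41 (adjusted p = 0.820 with DESeq2). The genes that fell are also used by cells resident in tissue, and the part of resident cells in these values was not tested.

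Genes of the vessels that hold the blood did not pass in any of 22 rows with DESeq2, edgeR or limma-voom. With these tools 5, 7 and 6 had an unadjusted p under 0.05, beside 2267, 2789 and 2609 of all 18606 rows. Of 14 endothelial genes 13 had a positive log2 fold change, with a median of 0.23, against 3 of 8 and -0.04 for pericytes and vascular smooth muscle. Summed endothelial normalized counts were 3333 to 4071 in WT and 3796 to 4471 in DKO, which overlapped. The endothelial growth factor receptor genes Kdr and Flt1 had log2 fold changes of 0.29 and 0.14, and Pecam1, the junction gene of endothelium, had 0.40 (adjusted p = 0.110 with DESeq2). Rgs5 and Abcc9, abundant in pericytes, had 0.19 and 0.00. Without WT 4, Egfl7 (0.62), Plvap (0.58) and Vwf (-0.53) passed with DESeq2, and without DKO 1 Pecam1 did (0.51). The plot of the lists sets the globin and Alas2 differences beside those of all these genes.

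**Figure D4:**
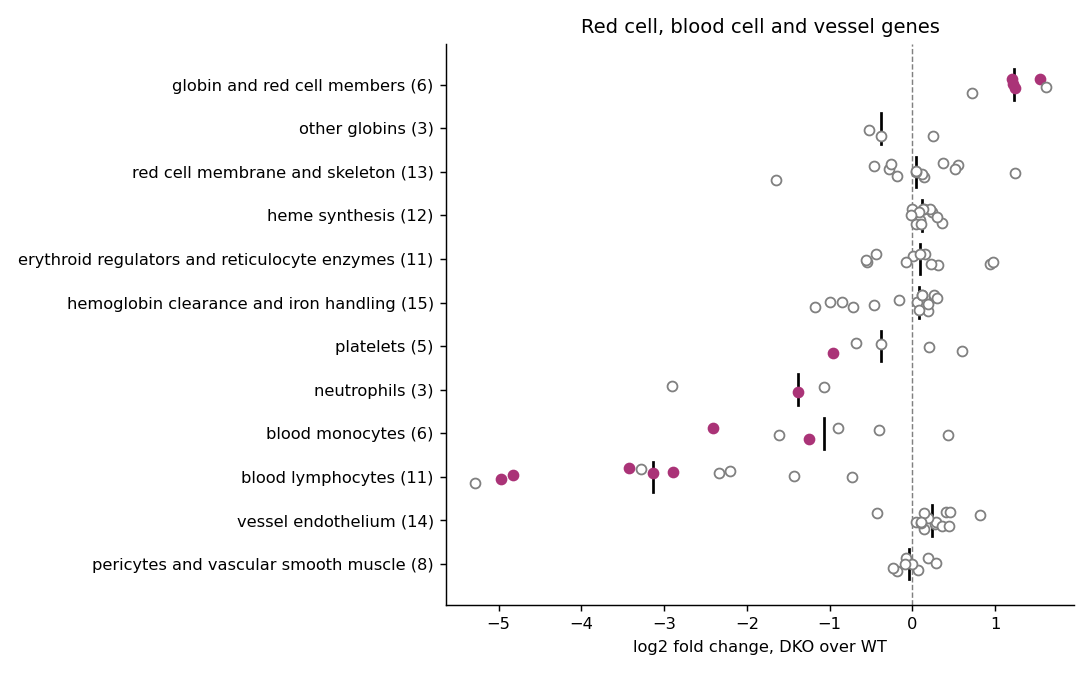
DESeq2 log2 fold change, DKO over WT, of each tested gene by list, filled where the adjusted p was under 0.05, with the list median as a black tick and Cd8a drawn at its bound. The members lie to the right, and the 4 lists of other blood cells have medians from -3.14 to -0.38. The erythroid, clearance and vessel lists have medians from -0.38 for other globins to 0.23 for endothelium. Platelets and other globins have the same rounded median, -0.38.

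Transcripts that define the SMG were abundant in every library, such as Egf, the duct growth factor gene, at 33869 to 70042 normalized counts. Markers of its cell types also moved with the groups. Of the myoepithelial genes 6 of 7 fell, among them the contractile genes Acta2 (log2 fold change -0.74) and Cnn1 (-0.99), and of the duct genes 3 of 9 fell, among them Egf (-0.69) and Klk1b22 (-0.95). Of the acinar genes 2 of 8 rose, the water channel gene Aqp5 (0.54) and Agr2 (1.11). The secretory genes Dcpp1, Dcpp2 and Dcpp3 of that list, near-identical copies, got no p-value and set WT 5 apart: they stood at 6592, 17850 and 10077 normalized counts in WT 5, at 454, 991 and 1212 in DKO 1, and at 0 to 57.5 in the other 4 libraries. WT 5 had the lowest and DKO 1 the highest globin sum, and the part of this in the globin values was not tested. Which cells or tissue the Dcpp transcripts came from was not tested either, and no list covered other salivary glands. Summed normalized counts of the myoepithelial genes were 9183 to 9897 in WT and 5103 to 6587 in DKO. The part of these cell types in the globin difference was not tested. Of tissue that can be taken along at dissection, the skeletal muscle genes summed to 49.5 to 57.7 normalized counts in WT and 49.1 to 50.7 in DKO, and the adipocyte genes to 104 to 161 and 138 to 175, both overlapping. The lymph node stroma genes summed to 25.4 to 105 in WT and 17.8 to 21.9 in DKO, which did not overlap, and none of the 4 tested passed with DESeq2, 1 having an unadjusted p under 0.05.

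Genes whose levels followed the summed globin count most closely over the 6 libraries were sought among 11485 rows with a mean of at least 50 normalized counts, as a description only, since the groups differ in globin and any gene that differs between them will score high. Outside the members the closest were Zbed3 (Pearson r = 0.997), Pex10 (0.994), Ei24 (0.992), Fam129b (0.991), Tulp1 (0.990) and Cplx2 (0.989). Zbed3 stood at 78.2, 95.9 and 68.1 normalized counts in WT 1, 4 and 5 and 126, 121 and 127 in DKO 1, 4 and 5, the WT order of the globins. Their log2 fold changes, from 0.14 for Fam129b to 0.67 for Tulp1, were below those of the globins. Alas2 scored 0.985, rank 10, and Epb4.1 0.957, rank 36. Over all rows compared, the median r was 0.104, and 217 were above 0.9 and 42 above 0.95. Lower values were found for other heme synthesis genes, such as 0.728 for Ppox and 0.0204 for Alas1.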

How the data were processed

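RNA-seq libraries were made from total RNA with an unstranded Nextera XT kit and sequenced on a HiSeq2500. Per the submitters' processing notes, STAR 2.5.2a, DESeq2, edgeR and limma were used, with the builds GRCm38, mm10 and GRCh38 named. The counting tool, its annotation and its rule for reads matching several genes are not given in the sources used here. Counts were deposited by the authors for each gene symbol without normalization, both unfiltered (43280 rows, used here) and after a filter (17527 rows, with identical counts). Another deposited table, of scaled values, was not used. No column was left unmatched to a library.

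Rows with at least 10 counts in all were tested by DESeq2 1.42.0 in R 4.3.3 (two-sided Wald test, median-of-ratios size factors, Benjamini-Hochberg adjustment, threshold 0.05), the tool named in the study's methods, without the fold cutoff used there. The default Cook's and independent filters left 2556 of the 18606 rows without an adjusted p-value, Slc4a1 among them. Scripts were tested on simulated data. Counts per kilobase used the longest coding transcript of GENCODE M21. Transcript sequences came from GENCODE M21 and promoters from RefSeq. Of 189 entries in 17 lists, 3 (Epb41, Epb42, Tent5c) were matched through RefSeq synonyms and 4 (Hbb-b1, Hbb-b2, Ahsp, Eraf) were not analysed here. Libraries of 1 group differed by more than sampling noise (chi-square per degree of freedom 16.8 to 43.4), so each counted as 1 replicate. Nothing states that the libraries came from separate mice, so p-values measure the spread between libraries. Intervals and limits of a count of 0 cover counting error only.

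The members and lists were chosen with earlier results of these data known. Genes named are the members, in each list those under the threshold and the 2 most abundant, and the 6 closest to summed globin by Pearson correlation of log2(normalized count + 1). Further genes were named after their values were seen, and a few list genes are not reported here. Alternatives were edgeR 4.0.16 and limma-voom 3.58.1 with TMM, TMM or total counts as size factors, the authors' filtered table, no filter or a minimum of 10 counts in 3 or more libraries, the replicate number as a block, sums without the 10 most abundant rows, ratios of single alpha and beta genes, and leaving out each library.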

Additional observations from a re-analysis of the deposited data

How the results depend on the processing

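Genes passing the threshold numbered 539 with DESeq2, 10 with edgeR, 7 with limma-voom, 1469 with total counts as size factors, 343 with the replicate number as a block and 149 to 817 with a library left out. Of the 6 members 4 passed, 0 with edgeR or limma-voom and 3 to 5 with a library left out; no member's log2 fold change reversed. Of the other blood cell genes 9 passed, 0 with edgeR or limma-voom, 4 with at least 10 counts in at least 3 libraries, 4 with the replicate block and 1 to 14 with a library left out. Total counts as size factors gave 1 call each among other erythroid genes (Cygb), clearance genes (Cd163) and vessel genes (Vwf), where the main count was 0. Leaving out a library gave 0 to 1, 0 to 3 and 0 to 3. The alpha to beta log2 difference, 0.06 from the sums and from 0.01 to 0.12 with a library left out, was 0.30 for Hba-a2 over Hbb-bt and 0.34 for Hba-a2 over Hbb-bs and reversed to -0.011 for Hba-a1 over Hbb-bt. The causes were not tested. Libraries with the same replicate number were not more alike: their deviations from the group means correlated at -0.13, -0.02 and -0.26 over 11489 rows. For different numbers the values were 0.45 (WT 5 with DKO 1), 0.44 (WT 4 with DKO 5), 0.27 (WT 1 with DKO 4), -0.14, -0.21 and -0.39. Deviations within groups of 3 cannot show whether libraries shared a litter or batch, and no pairing is read from them. With the replicate block the summed globin difference was 1.29, as without it, and the alpha to beta difference 0.06. The block changed the counts of calls given above and gave 4 members called. Depth limits Slc4a1 and most erythroid genes, at a few counts per library.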

Other observations

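The embryonic beta globin gene Hbb-y had 9 counts in WT 5 (exact 95% Poisson interval 4.12 to 17.1) and 0 in the other 5 libraries, and Hba-x, the embryonic alpha gene, had 1 count in the same library and 0 elsewhere. WT 5 was also the library with the lowest adult globin count, 893. These values were noticed after the data were seen, and no test was made of them.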
